A study of Mus musculus with 39 samples.

Results

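The genes described here encode proteins of the acrosome and of sperm-egg binding and fusion, together with the chaperones and proteases that the sperm surface protein ADAM3 needs to mature. The list held 39 mouse genes, taken by symbol. On the array, 38 of them had 1 probe set annotated with that single symbol, and those 38 all passed the filter on dim probe sets, among 19007 genes tested of 22180 with a probe set of 1 symbol. The remaining gene, Acrbp, which encodes the proacrosin binding protein, shared its only probe set with a neighbouring symbol and was not analysed here. Of the 38, 6 (Spam1, Hyal5, Spaca7, Izumo3, Pdilt and Prss37) passed the filter only through their values at 2 months.

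RNA of mouse testis was measured on 39 single-colour Affymetrix arrays, 1 per animal, in 8 groups. Wild-type littermates (WT) numbered 8 at 2 weeks and 8 at 2 months of age, and the same WT arrays of an age served every comparison at that age. The 3 mutant lines carried floxed alleles of Prkar1a, which encodes a regulatory subunit of protein kinase A, and differed in the Cre driver: Sf1:Cre,Prkar1a fl/fl (prKO, 4 animals at 2 weeks and 3 at 2 months), Amh:Cre,Prkar1a fl/fl (srKO, 4 and 4) and Cyp11a1:Cre,Prkar1a fl/fl (lrKO, 4 and 4). These drivers are known for somatic cells: Sf1 for the precursors of steroidogenic and Sertoli cells, Amh for Sertoli cells and Cyp11a1 for steroidogenic cells, whereas most of the genes described here are products of germ cells. Which line each WT littermate came from is not given in the labels used here. The tissue labels name whole testis, but the text on extraction names adrenal glands. The germ cell genes below were bright in every group at 2 months.

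The acrosome is a secretory vesicle that forms from the Golgi apparatus in round spermatids and covers the front of the sperm nucleus. Its contents and the sperm surface act in sequence: surface and acrosomal proteins take part in passage through the cumulus and binding to the zona pellucida, the vesicle then releases its contents, and a set of membrane proteins exposed by that release takes part in fusion with the egg. Several members of the ADAM family are made during meiosis as precursors that must be folded by testis-specific chaperones and cut before they reach the sperm surface. In mice, spermatocytes fill the tubules during the second week of life and spermatids appear only after that. In RNA of a whole organ, fewer cells of a type and less RNA per cell cannot be told apart.

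Values are log2 intensities, so a difference of 1 is a factor of 2; they compare samples for a gene and not genes with each other. Values after ± are standard errors of a log2 difference unless marked SD. A gene was called at a limma p-value under 0.05 after Benjamini-Hochberg adjustment over the 19007 genes.

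The targeted gene Prkar1a was 0.78 ± 0.07 lower in prKO than in WT at 2 weeks on the log2 scale and 0.30 ± 0.09 lower at 2 months (limma, adjusted p = 4.5e-07 and 0.0078). In srKO its difference from WT was -0.48 ± 0.07 at 2 weeks (adjusted p = 0.0022) and 0.24 ± 0.08 at 2 months (adjusted p = 0.03), and in lrKO it was 0.05 ± 0.07 and 0.04 ± 0.08 (adjusted p = 0.84 and 0.94). The epididymal gene Adam7 was at 11.70 in prKO replicate 1 at 2 months, against a median of 4.40 over arrays of that age, and lay between 5.56 and 7.09 on 5 other arrays. Epididymal tissue in these dissections was not tested. The numbers of members called without those 6 arrays are given where they differ.

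In WT testes most of the group rose steeply between the ages. Of the 38 genes, 36 rose from 2 weeks to 2 months and 1 fell (30 and 1 of the 32 that did not pass the filter through 2 months only), with a median log2 difference of 3.89, against -0.24 over all genes tested (26.7% of all genes tested were called higher and 55% lower). In 35 members every array at 2 months lay above every array at 2 weeks, which was so for 20.1% of all genes tested. Those 35 and the median include the 6 genes that passed the filter through 2 months only, for which a rise was built in. The rise was 6.22 ± 0.09 for Acrv1, which encodes the acrosomal matrix and vesicle protein SP-10, and 4.91 ± 0.10 for Lyzl6, a lysozyme-like gene (limma, adjusted p = 4.5e-36 and 4.5e-31). The 6 genes whose WT means at 2 weeks lay under the filter value of 4.62 were at least 21.6-fold (Hyal5) to at least 60.6-fold (Pdilt) higher at 2 months, taking that value as a floor; Izumo3 was at least 39.7-fold and Spam1, the sperm surface hyaluronidase, at least 28.2-fold higher. These genes passed the filter through the group in which they are high, so no test of their rise is given. The median difference of all genes moved by 0.10 when the values were quantile normalized again and by 0.11 when each array was centred on its median.

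**Figure D1:**
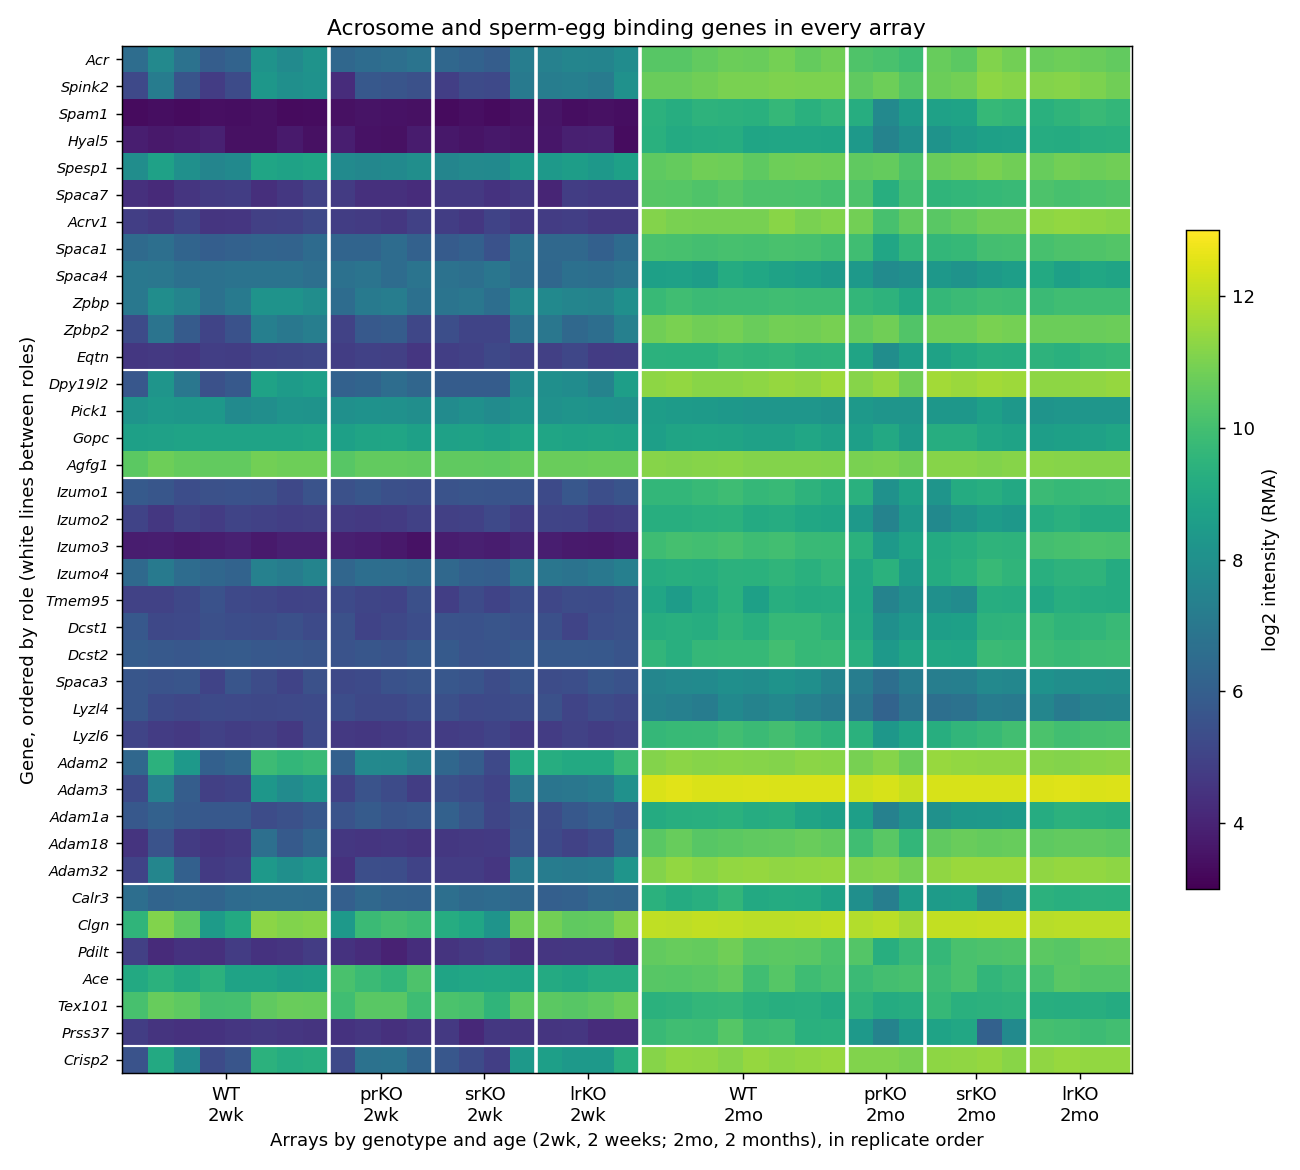
Log2 intensity (colour) of the 38 acrosome and sperm-egg binding genes (rows, ordered by role) on each of the 39 arrays (columns, by genotype and age). Most rows are dark at 2 weeks and bright at 2 months; a set of rows including Adam2, Clgn and Crisp2 varies among arrays of a genotype at 2 weeks, and many rows are dimmer in prKO at 2 months.

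A few members rose little, did not pass the threshold or fell. Gopc, a Golgi protein needed for fusion of proacrosomal vesicles, had a WT mean of 8.79 ± 0.05 (SD, n = 8) at 2 weeks and 8.79 ± 0.09 (SD, n = 8) at 2 months (difference 0.00 ± 0.06). Pick1, its binding partner in vesicle traffic, rose by 0.19 ± 0.07 (limma, adjusted p = 0.022), a call that was lost without WT replicate 5 or 6 of 2 weeks or replicate 1 of 2 months (adjusted p = 0.08, 0.056 and 0.056). Agfg1, an ArfGAP-domain protein of the acrosomal vesicle, rose by 0.46 ± 0.04. Tex101, a germ cell glycoprotein involved in ADAM3 processing that is made before the acrosome forms, fell by 1.00 on the log2 scale, from 10.41 ± 0.30 (SD, n = 8) to 9.41 ± 0.18 (SD, n = 8) (limma, adjusted p = 7.1e-10). Tex101 was the only member in which every WT array at 2 months lay below every WT array at 2 weeks, which was so for 37.7% of all genes tested.

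At 2 weeks the members fell into classes by their behaviour among WT arrays, which were described after their values were seen. In 16 members every WT array lay below the median of all values (5.94), among them Spam1, Hyal5, Acrv1, Izumo1, Izumo2, Izumo3, Tmem95, Dcst1, Dcst2 and the lysozyme-like genes Spaca3, Lyzl4 and Lyzl6. In 10 members the WT arrays spanned from 2.16 (Adam18) to 4.17 (Crisp2), a spread above 1.5 that 3.82% of all genes tested showed: Acr, Spink2, Zpbp2, Dpy19l2, Adam2, Adam3, Adam18, Adam32, Clgn and Crisp2. The remaining 12 spanned at most 1.43. At 2 months no member had a WT spread above 1.5.

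The 10 varying members moved together from array to array. Their mean on WT replicates 1 to 8 at 2 weeks was 5.90, 8.01, 6.87, 5.52, 5.83, 8.64, 8.29 and 8.51. Replicates 1, 4 and 5 were low, replicate 3 lay between, and replicates 2, 6, 7 and 8 were high. The mean of 9 spermatocyte markers on the same arrays was 7.77, 8.87, 8.41, 7.57, 7.96, 9.10, 9.11 and 9.08, low and high on the same replicates. The mean of the 16 dim members moved only between 4.69 and 4.90, and that of 9 spermatid markers between 5.76 and 5.93. The part of germ cell stage in these values was not tested.

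**Figure D2:**
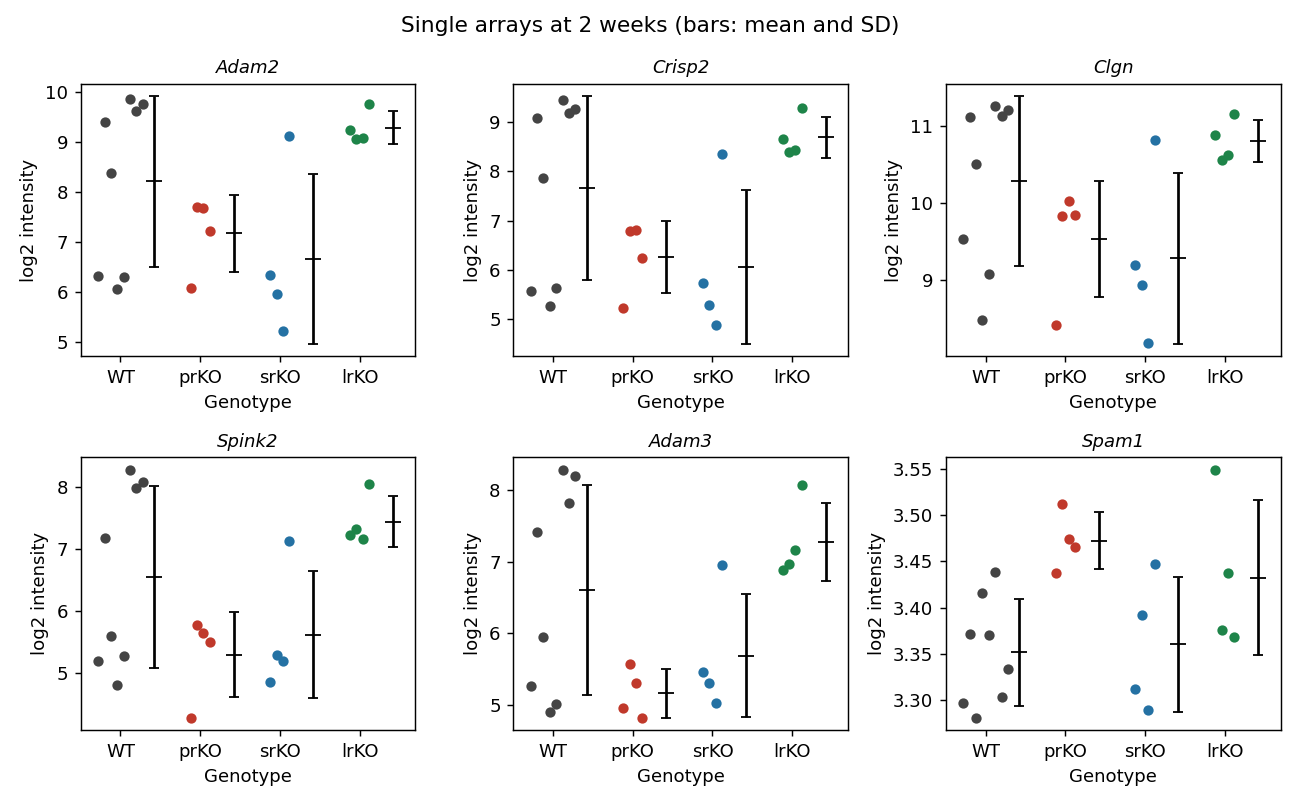
Log2 intensity of Adam2, Crisp2, Clgn, Spink2, Adam3 and Spam1 on each array at 2 weeks, by genotype, with mean and SD at the right of each group. WT arrays run from low to high values for the 5 varying genes. The prKO arrays and srKO replicates 1 to 3 lie below the high WT arrays. In Adam2, Clgn and Crisp2 prKO replicates 2 to 4 lie between low and high WT arrays. The srKO replicate 4 and the lrKO arrays sit high, and Spam1 spans less than 0.3 over all arrays on its own axis.

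Adam2, which encodes the beta subunit of the sperm surface protein fertilin, shows how this spread bears on the comparisons at 2 weeks. Its WT values ran from 6.06 through a median of 8.89 to 9.86. The prKO arrays read 6.07, 7.70, 7.68 and 7.22, the srKO arrays 6.34, 5.95, 5.21 and 9.12, and the lrKO arrays 9.24, 9.07, 9.08 and 9.78. All prKO and lrKO values lay inside the WT range, whereas 2 srKO values lay below it and 2 inside. Clgn, the calmegin chaperone of the ADAM proteins, had the same order, with prKO at 8.41, 9.83, 10.03 and 9.85, and WT from 8.48 to 11.26. The mean of the 10 varying genes lay between 5.54 and 6.46 in prKO, at 5.86, 5.73, 5.46 and 7.68 in srKO, and between 7.61 and 8.46 in lrKO.

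Against that spread, 1 of the 38 genes was called in prKO at 2 weeks (higher), none in srKO and none in lrKO, with 10, 3 and 1 at an unadjusted limma p under 0.05. Over all genes tested 7.9% were called higher in prKO, 0.873% were called in either direction in srKO and 0.1% in lrKO. The median log2 difference of the members was -0.14, -0.09 and 0.04. The median over the 10 varying members was -1.003 in prKO, -0.93 in srKO and 0.69 in lrKO, with 0 of 10 called in each. The count in prKO depended on single arrays: it became 2 without WT replicate 1, 3 without WT replicate 2, 5 without WT replicate 4 and 2 without prKO replicate 2. It was 12 (1 higher, 11 lower) against WT replicates 5 to 8 alone and 11 (1 higher, 10 lower) with array weights, which in srKO gave 13, all lower, among them Adam2 (-2.44) and Crisp2 (-2.54). Of the spermatocyte markers 1 of 9 was called in prKO (Ccna1, -0.41 ± 0.11) and none in srKO or lrKO.

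The member that rose in prKO at 2 weeks was Ace, angiotensin-converting enzyme, whose testis isoform is a germ cell protein needed for ADAM3 to reach its place on sperm. The WT values ran from 8.60 through a median of 8.93 to 9.42. The prKO arrays read 10.15, 9.80, 9.60 and 10.21, all above every WT array, a separation that 4.27% of all genes tested showed. The difference was 0.96 ± 0.14, a factor of 1.94 (limma, adjusted p = 0.00012), and it was called under every alternative run. In srKO (8.83, 8.90, 8.97 and 8.86) and lrKO (9.11, 8.96, 9.20 and 9.21) the arrays lay within the WT range. Among the other lists in prKO at 2 weeks 4 of 6 Leydig cell markers rose, Star by 2.98 ± 0.23 and Cyp11a1 by 2.93 ± 0.18. So did 5 of 8 macrophage markers, Cd163 by 0.92 ± 0.08, where 7.9% of all genes tested were called higher.

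Ace has an upstream promoter known for the long somatic transcript and an internal promoter known for the short testis transcript. The probe set carries the symbol only, and which transcript it reads is not given in the sources used here. The 250 bases before each start are shown because the gene moved apart from the other members; the starts lie 7241 bases apart on the plus strand (RefSeq, GRCm38.p6).
Ace upstream start, chr11:105967698-105967947: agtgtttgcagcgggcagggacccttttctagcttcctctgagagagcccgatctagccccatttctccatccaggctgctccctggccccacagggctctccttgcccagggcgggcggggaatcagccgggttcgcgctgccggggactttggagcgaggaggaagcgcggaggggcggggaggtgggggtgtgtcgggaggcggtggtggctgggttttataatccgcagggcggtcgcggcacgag
Ace internal start, chr11:105974939-105975188: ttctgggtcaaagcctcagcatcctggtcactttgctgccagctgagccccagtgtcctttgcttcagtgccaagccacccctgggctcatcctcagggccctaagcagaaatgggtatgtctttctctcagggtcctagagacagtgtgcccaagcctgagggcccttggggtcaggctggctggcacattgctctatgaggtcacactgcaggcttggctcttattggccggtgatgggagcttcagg
Neither window held the exact letters TGACG on either strand, and forms that differ by a base were not searched.

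By 2 months the group was lower in prKO. Of the 38 genes 33 fell, none rose and 5 were not called, where 22.4% of all genes tested were called lower and 26% higher. The median log2 difference of the members was -0.56, against 0.02 over all genes tested, and 7 of the 33 fell at least 2-fold (3.48% of all genes tested were called lower by that size). In 21 members all 3 prKO arrays lay below all 8 WT arrays, which was so for 13.8% of all genes tested. Of the 33 calls 18 held under every alternative run. The count was 28 without the arrays high in Adam7.

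**Figure D3:**
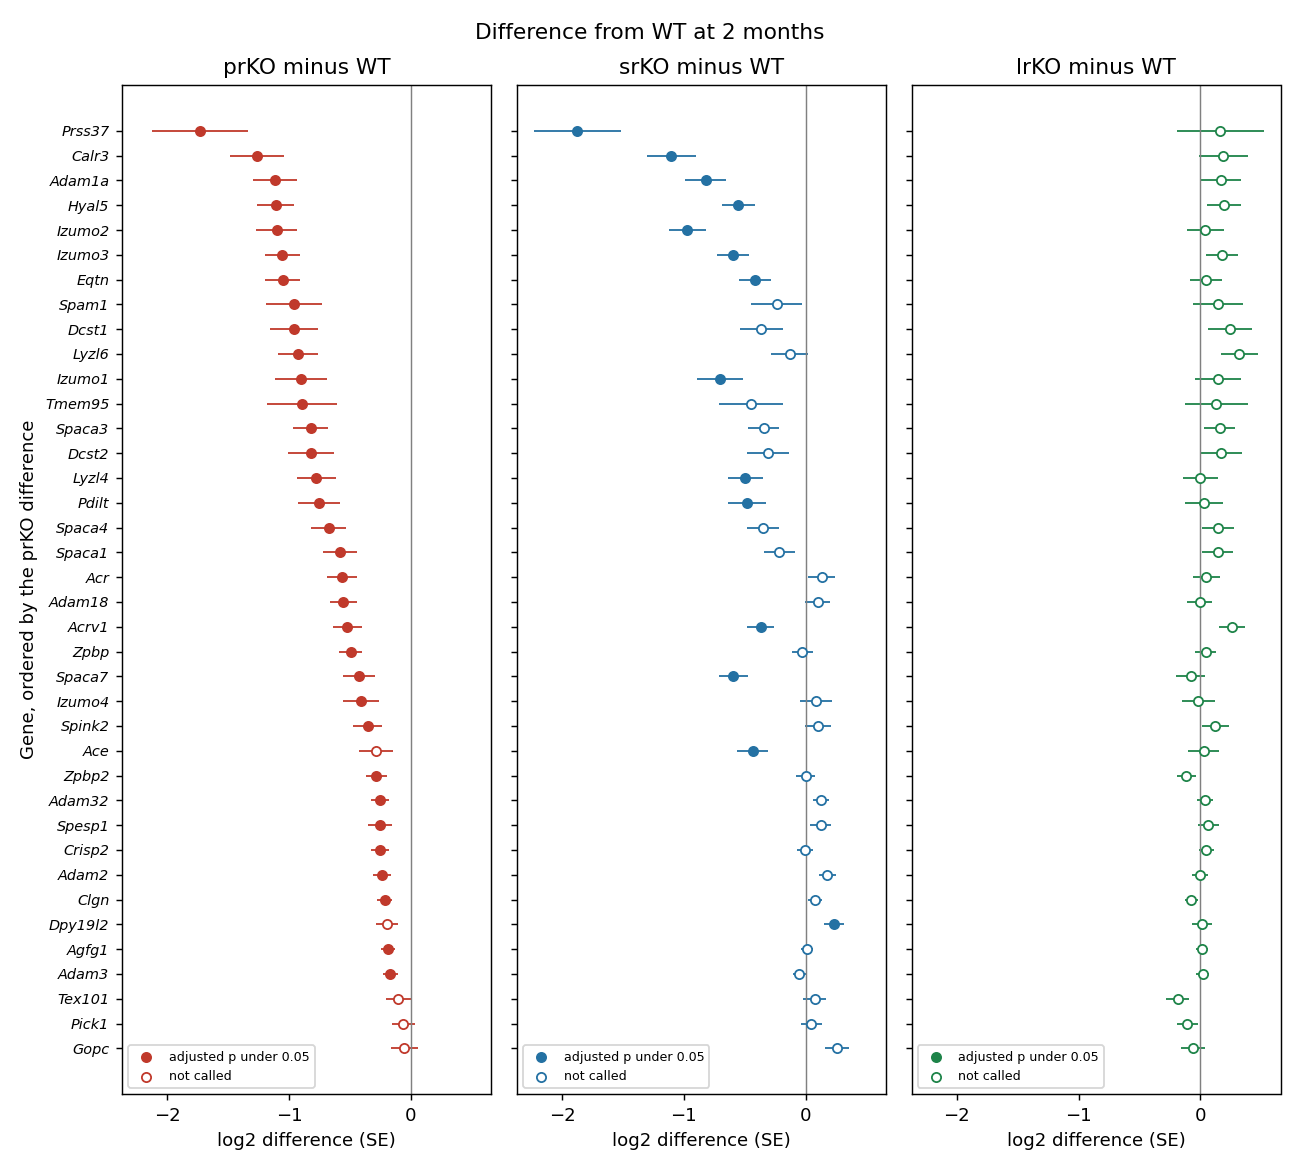
Difference from WT at 2 months (log2, point, with its standard error as a bar) for each of the 38 genes in prKO, srKO and lrKO, ordered by the prKO difference; filled points have an adjusted p under 0.05. Differences run from -1.73 to -0.05 in prKO and from -1.88 to 0.26 in srKO, and no point is filled in lrKO.

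Among the enzymes and matrix proteins of the acrosome 6 of 6 fell in prKO. Hyal5, a hyaluronidase that acts on the cumulus matrix, had WT values from 8.86 through 9.02 to 9.35, and prKO values of 8.38, 7.46 and 8.00. It fell by 1.11 ± 0.15 on the log2 scale (limma, adjusted p = 7.4e-06), with no overlap between the groups. Spam1 read 9.23, 7.72 and 8.48 in prKO against 9.24 to 9.65 in WT and fell by 0.96 ± 0.23 (limma, adjusted p = 0.0019). For Spam1 prKO replicate 1 lay just below the lowest WT array and replicate 2 far below it. Acr, which encodes the acrosomal protease acrosin, read 10.25, 10.12 and 9.89 against 10.41 to 10.90 and fell by 0.57 ± 0.12 (limma, adjusted p = 0.00076). Here replicate 3 was lowest. Spaca7, a protein released from the acrosome, Spink2, a protease inhibitor, and Spesp1, of the equatorial segment, fell by 0.43, 0.36 and 0.25. The call for Spaca7 was lost without prKO replicate 2 (-0.16, adjusted p = 0.2), that for Spink2 without replicate 1 or replicate 3, and that for Spesp1 without prKO replicate 3 or any of WT replicates 3, 4, 6, 7 and 8.

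The proteins of the acrosomal membrane and of zona binding fell as well in prKO, 6 of 6. Eqtn, which encodes equatorin, a membrane protein of the acrosome, read 8.84, 7.88 and 8.59 in prKO against 9.37 to 9.64 in WT, and fell by 1.05 ± 0.15 (limma, adjusted p = 7.7e-06). Every prKO array was below every WT array. The decreases were smaller for Spaca4, Spaca1, Acrv1, Zpbp and Zpbp2, at 0.67, 0.58, 0.52, 0.50 and 0.28. Zpbp and Zpbp2 encode related zona pellucida binding proteins of the acrosomal matrix. The call for Zpbp2 was lost without prKO replicate 3 (-0.14, adjusted p = 0.2).

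Of the genes of acrosome formation 1 of 4 fell in prKO: Agfg1 fell by 0.19 ± 0.05 (limma, adjusted p = 0.0073), a call lost without prKO replicate 3. Dpy19l2, a protein of the inner nuclear membrane that anchors the acrosome to the nucleus, read 11.17, 11.42 and 10.83 in prKO against 11.22 to 11.53 in WT (-0.20 ± 0.09, limma, adjusted p = 0.084). Without prKO replicate 2 its difference was -0.34 (adjusted p = 0.0048). Pick1 and Gopc differed by -0.06 ± 0.09 and -0.05 ± 0.11 (adjusted p = 0.61 and 0.71).

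The genes of sperm-egg fusion all fell in prKO, 7 of 7, with a median difference of -0.90. Izumo1, the sperm protein that binds Juno on the egg, read 9.34, 8.06 and 8.76 against WT values from 9.22 through 9.65 to 9.88. Its decrease was 0.90 ± 0.21 (limma, adjusted p = 0.0015), and prKO replicate 1 lay within the WT range. Izumo2 read 8.36, 7.49 and 8.35 against 8.87 to 9.39 and fell by 1.10 ± 0.17 (limma, adjusted p = 2.3e-05), with no overlap. Izumo3, a paralog involved in acrosome biogenesis, read 9.40, 8.36 and 8.86 against 9.75 to 10.10 and fell by 1.06 ± 0.14 (limma, adjusted p = 6.3e-06), also with no overlap. Izumo4, the paralog without a membrane anchor, fell by 0.41 ± 0.15 and was not called without prKO replicate 1 or without replicate 3 (adjusted p = 0.052 and 0.35). Tmem95, a sperm membrane protein needed for fusion, read 8.94, 7.47 and 7.97 against 8.52 to 9.39; its call (-0.89 ± 0.29, adjusted p = 0.015) was lost without replicate 2 or replicate 3.

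Dcst1 and Dcst2 encode partner membrane proteins of sperm and lie head to head on chromosome 3, Dcst1 on the minus strand and Dcst2 on the plus strand, with starts 66 bases apart. The 65 bases between them, shared by both promoters, are shown because their values ran in parallel (RefSeq, GRCm38.p6, plus strand).
Between the starts of Dcst1 and Dcst2, chr3:89365254-89365318: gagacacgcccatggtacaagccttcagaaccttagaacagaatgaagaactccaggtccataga
In prKO at 2 months Dcst1 read 9.03, 7.98 and 8.40 and Dcst2 9.30, 8.39 and 8.85, and the decreases were 0.96 ± 0.20 and 0.82 ± 0.19 (limma, adjusted p = 0.00052 and 0.0012). In srKO Dcst1 read 8.61, 8.69, 9.46 and 9.50 and Dcst2 8.98, 8.91, 9.81 and 9.74. For both genes srKO replicates 1 and 2 lay below every WT array and replicates 3 and 4 within the WT range. This pattern was not particular to the pair. Tmem95 on chromosome 11 read 8.03, 7.84, 9.24 and 9.18 in srKO, and Spam1 on chromosome 6 read 8.71, 8.80, 9.71 and 9.58. The part of the shared stretch in these values was not tested.

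The lysozyme-like genes Spaca3, Lyzl4 and Lyzl6, whose products lie in the acrosome or on the sperm surface, fell by 0.82 ± 0.14, 0.78 ± 0.16 and 0.93 ± 0.17 in prKO, 3 of 3, each with no overlap with WT (limma, adjusted p = 9.1e-05, 0.00047 and 0.00013).

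The ADAM family and the genes of ADAM3 maturation were split in prKO. Of the ADAM genes 5 of 5 fell, but the size differed: Adam1a, which encodes a subunit of fertilin in the endoplasmic reticulum, fell by 1.11 ± 0.18 (limma, adjusted p = 4.9e-05), with arrays at 8.63, 7.39 and 8.06 against 8.68 to 9.38 in WT. Adam3, whose product is needed for binding to the zona and for passage into the oviduct, fell by 0.17 ± 0.06 (limma, adjusted p = 0.023). Its arrays read 12.30, 12.40 and 12.16 against 12.42 to 12.55, narrowly without overlap. Adam2, Adam18 and Adam32 fell by 0.24, 0.56 and 0.26. The calls for Adam2, Adam3 and Adam32 were lost without prKO replicate 3, and that for Adam3 also without replicate 1.

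Among the helpers of ADAM3, 4 of 6 fell in prKO. Prss37, an inactive serine protease homologue needed for ADAM3 processing, had WT values from 9.34 through 9.86 to 10.36 and prKO values of 8.37, 7.49 and 8.35. Its decrease of 1.73 ± 0.40, a factor of 3.32, was the largest among the members (limma, adjusted p = 0.0012). Calr3, which encodes calsperin, a calreticulin-like chaperone of the testis, read 7.96, 7.29 and 8.52 against 8.76 to 9.61 and fell by 1.26 ± 0.22 (limma, adjusted p = 0.00011). For both genes every prKO array lay below every WT array. Pdilt, the testis disulfide isomerase that works with Clgn, fell by 0.75 ± 0.17, and Clgn by 0.22 ± 0.06, a call lost without prKO replicate 3. Ace (-0.29 ± 0.14) and Tex101 (-0.11 ± 0.10) were not called (adjusted p = 0.096 and 0.43); Ace was called without WT replicate 5 or without replicate 7 (-0.34, adjusted p = 0.045 and 0.043). Crisp2, which encodes an acrosomal and tail protein, fell by 0.25 ± 0.07.

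**Figure D4:**
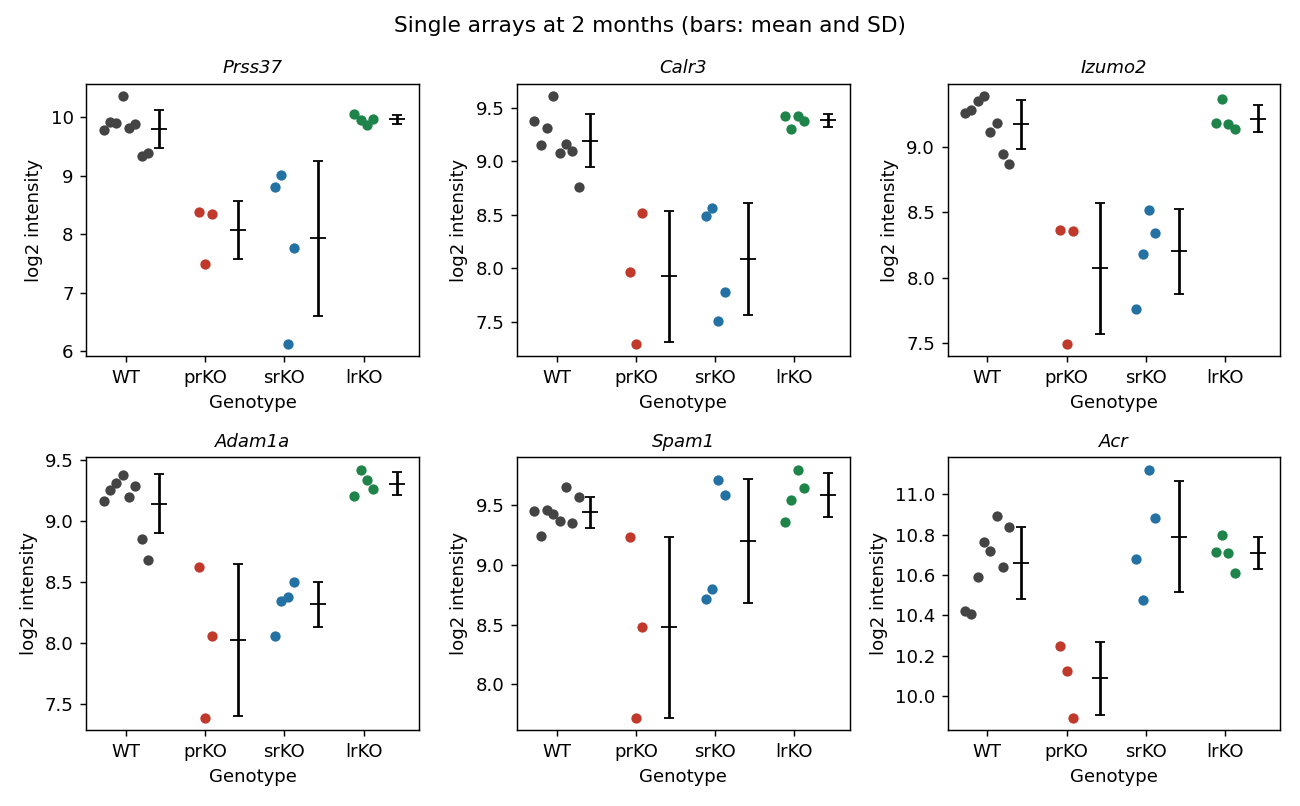
Log2 intensity of Prss37, Calr3, Izumo2, Adam1a, Spam1 and Acr on each array at 2 months, by genotype, with mean and SD at the right of each group. In Prss37, Calr3, Izumo2 and Adam1a all prKO and srKO arrays lie below the WT arrays; in Spam1 srKO replicates 1 and 2 are low and replicates 3 and 4 are not, and in Acr the srKO arrays overlap with WT.

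In srKO at 2 months 13 of the 38 genes fell, 1 rose and 24 were not called, with 18 at an unadjusted limma p under 0.05. Over all genes tested 10.8% were called lower and 14.7% higher. The median log2 difference was -0.23, against 0.03 over all genes tested, and 10 members had all 4 srKO arrays below all 8 WT arrays, which was so for 7.35% of all genes tested. The count of 14 became 8 without srKO replicate 1 and 9 without replicate 2, and 10 without the arrays high in Adam7. Of the 14 calls 6 held under every alternative run: Prss37, Calr3, Izumo2, Adam1a, Izumo3 and Spaca7.

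The largest decreases in srKO were those of Prss37, Calr3, Izumo2 and Adam1a. Prss37 read 8.80, 9.01, 6.12 and 7.77 and fell by 1.88 ± 0.36, a factor of 3.67 (limma, adjusted p = 0.00057). Calr3 read 8.49, 8.56, 7.51 and 7.78 and fell by 1.10 ± 0.20 (limma, adjusted p = 0.0004). For both genes all 4 srKO arrays lay below WT, and replicates 3 and 4 were the lowest. Izumo2 read 7.76, 8.18, 8.52 and 8.34 and fell by 0.97 ± 0.15 (limma, adjusted p = 7.8e-05), with replicate 1 lowest. Adam1a read 8.06, 8.34, 8.37 and 8.50 and fell by 0.82 ± 0.16, and Izumo3 read 9.11, 9.25, 9.51 and 9.47 and fell by 0.60 ± 0.13 (limma, adjusted p = 0.00093 and 0.0018). Neither overlapped with WT.

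The other members that fell in srKO did so by 0.37 to 0.70: Izumo1 by 0.70, Spaca7 by 0.59, Hyal5 by 0.55, Lyzl4 by 0.50, Pdilt by 0.48, Ace by 0.43, Eqtn by 0.42 and Acrv1 by 0.37. The calls for Acrv1, Eqtn, Izumo1, Lyzl4 and Pdilt were lost without srKO replicate 1, those for Acrv1, Eqtn, Lyzl4 and Pdilt also without replicate 2, and that for Ace without replicate 3. Dpy19l2 was the member that rose (0.23 ± 0.08, limma, adjusted p = 0.0496), and that call was lost when any srKO array was left out and when any WT array except replicate 8 was left out. Adam2 was higher in all 4 srKO arrays than in all 8 WT arrays (11.35 to 11.44 against 11.13 to 11.27), as were 9.52% of all genes tested, but was not called (0.18 ± 0.07, adjusted p = 0.056). Acr, with arrays at 10.68, 10.48, 11.12 and 10.88, was also not called (0.13 ± 0.11, adjusted p = 0.44), nor was Spam1 (8.71, 8.80, 9.71 and 9.58; -0.24 ± 0.21, adjusted p = 0.46).

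In lrKO at 2 months none of the 38 genes was called by limma, with 2 at an unadjusted p under 0.05, and 0.184% of all genes tested were called. The median log2 difference was 0.05 and single differences ran from -0.19 (Tex101) to 0.32 (Lyzl6). Acrv1 read 11.29, 11.38, 11.29 and 11.22 in lrKO, all above the highest WT array of 11.22, with a difference of 0.26 ± 0.11 (limma, adjusted p = 0.54). Arrays above all WT arrays were seen in 0.81% of all genes tested. Prkar1a did not pass the threshold in this line, as given above.

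The decreases at 2 months were sorted by class of behaviour at 2 weeks. Of the 16 members dim at 2 weeks, 16 fell in prKO (median -0.91) and 10 in srKO (median -0.47). Of the 10 members that varied at 2 weeks, 9 fell in prKO (median -0.26), and in srKO none fell and 1 rose (median 0.10). Of the remaining 12, 8 fell in prKO and 3 in srKO. When all 8 groups were fitted, the spread at 2 weeks entered the error. In that fit 16 of the dim members were still called in prKO and 0 of the varying ones (limma, adjusted p from 0.13 for Adam18 to 0.81 for Adam3). The varying class was defined by that spread, so its loss of calls was built in and does not set the classes apart. The means per array had their lowest replicate in different places. The dim class read 9.01, 8.00 and 8.62 on prKO replicates 1 to 3, lowest on replicate 2. The varying class read 10.99, 11.14 and 10.75, lowest on replicate 3. In srKO the dim class read 8.62, 8.84, 9.06 and 9.13 against 9.31 to 9.66 in WT, and the varying class 11.29, 11.31, 11.44 and 11.38 against 11.16 to 11.36.

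Markers of germ cell stages moved beside these values. The shares of all genes tested at 2 months were 22.4% lower and 26% higher in prKO, and 10.8% and 14.7% in srKO. Of 9 spermatid markers 8 fell and 1 rose in prKO at 2 months (median -1.09), 8 fell in srKO (median -1.16) and none was called in lrKO. The mean of the 9 lay between 11.31 and 11.56 in WT, at 10.42, 10.02 and 10.78 in prKO, at 10.56, 10.35, 9.36 and 10.07 in srKO, and between 11.42 and 11.56 in lrKO. Of 9 spermatocyte markers 6 fell in prKO (median -0.34), while 1 rose and 1 fell in srKO. Their mean lay between 10.12 and 10.29 in WT, at 9.98, 9.94 and 9.55 in prKO and between 10.23 and 10.36 in srKO. In prKO the dim class and the spermatid markers were lowest on replicate 2, and the varying class and the spermatocyte markers on replicate 3. In srKO the spermatid markers were lowest on replicate 3, as were Prss37 and Calr3, while the dim class was lowest on replicate 1. Of 10 spermatogonial markers 3 rose and 4 fell in prKO, and 1 fell in srKO.

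**Figure D5:**
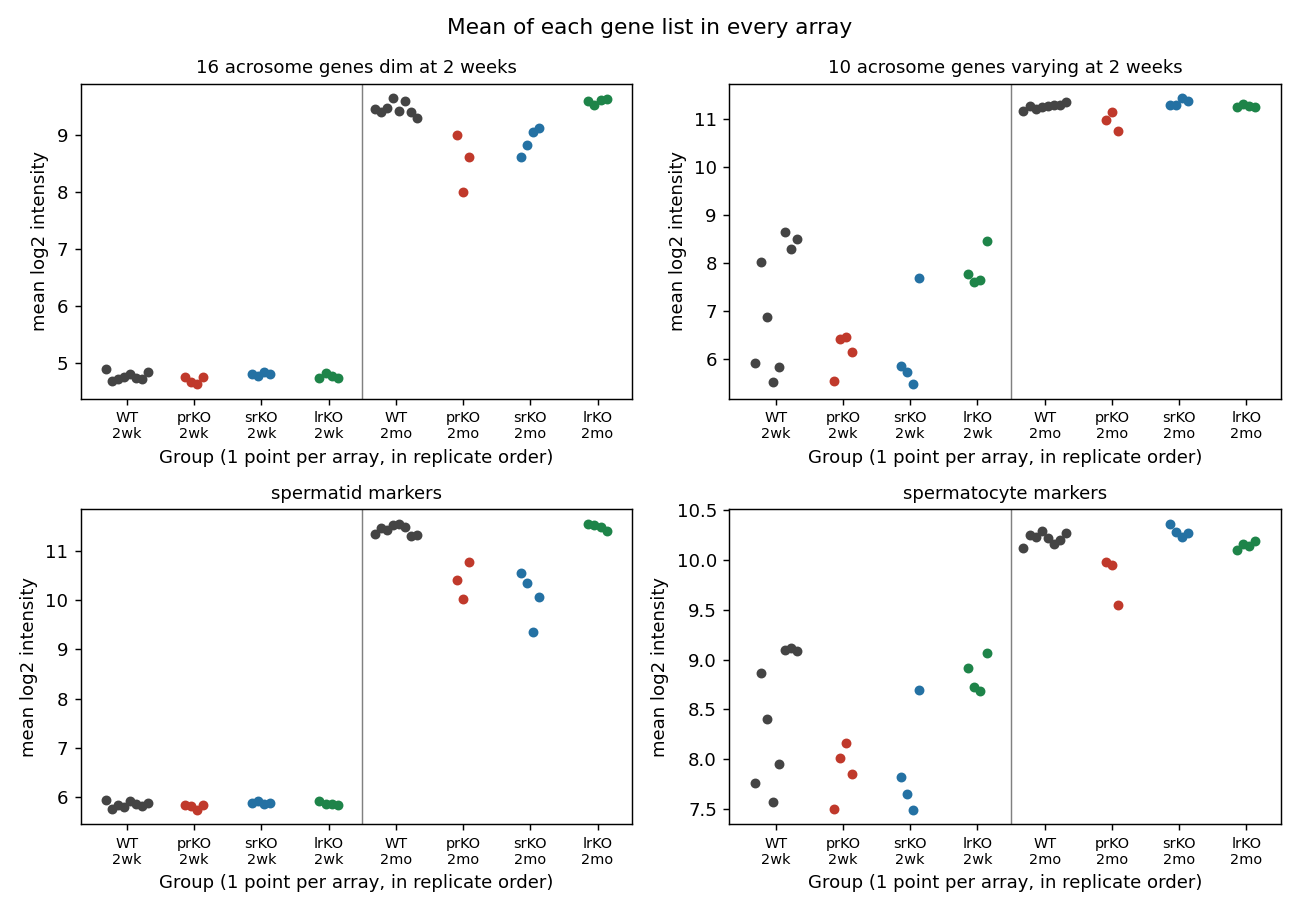
Mean log2 intensity on each array of the 16 acrosome genes dim at 2 weeks, the 10 that vary at 2 weeks, 9 spermatid markers and 9 spermatocyte markers, by group in replicate order. At 2 months the dim class lies below 9.31 on every prKO and srKO array, and the varying class is below the WT arrays on prKO but not on srKO arrays.

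Somatic and immune markers also moved on these arrays. For scale, 26% of all genes tested were called higher and 22.4% lower in prKO, and 14.7% and 10.8% in srKO. Of 8 macrophage markers 8 rose in prKO at 2 months (mean of the list 7.29 to 7.94 against 6.46 to 6.71 in WT) and 6 in srKO (7.20 to 7.68). Of 9 Sertoli cell markers 5 rose and 2 fell in prKO, and 2 rose and 2 fell in srKO. Of 6 Leydig cell markers 3 rose and 1 fell in each of these lines; Hsd3b6 fell by 3.15 ± 0.31 in prKO and by 1.17 ± 0.28 in srKO. Of 5 epididymal markers none was called in either line. The part of tissue composition in the values of the acrosome genes was not tested.

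The lines were compared directly at 2 months. In prKO against srKO 19 of 38 genes were lower and none higher, where 12.1% of all genes tested were called lower and 13.4% higher, with a median of -0.34. Lyzl6 was 0.79 ± 0.19, Acr 0.70 ± 0.14 and Adam18 0.65 ± 0.13 lower in prKO (limma, adjusted p = 0.0049, 0.0016 and 0.0014). By class 9 of the 10 varying members were lower in prKO than in srKO, 6 of the 16 dim members and 4 of the remaining 12. The genes with the largest decreases against WT were not called between the lines: Prss37 differed by 0.14 ± 0.44, Calr3 by -0.16 ± 0.25 and Izumo2 by -0.13 ± 0.19. None of the 19 calls held under every alternative. The count was 9 without prKO replicate 3, 10 without srKO replicate 3, 12 without srKO replicate 4, 23 without prKO replicate 1 and 25 without the arrays high in Adam7. It was 1 when only these groups were fitted, and 10 with all 8 groups, none of them a varying member. The varying members were defined by their spread at 2 weeks, which enters the error of the fit with all 8 groups.

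Against lrKO, 29 of 38 genes were lower in prKO and none higher (20.1% and 25.4% of all genes tested), and 16 of 38 lower and 1 higher in srKO (11.2% and 15.4%). Prss37 was 1.89 ± 0.44 lower in prKO and 2.04 ± 0.41 lower in srKO than in lrKO (limma, adjusted p = 0.0017 and 0.001). Gopc was the member higher in srKO than in lrKO (0.32 ± 0.11, limma, adjusted p = 0.044). That call held under 8 of 18 alternatives. It was lost without srKO replicate 1 or replicate 2 (limma, adjusted p = 0.14 and 0.15) and without lrKO replicate 1, 2 or 3. The srKO count of 17 became 11 without srKO replicate 1, 10 without srKO replicate 2, 11 without lrKO replicate 3 and 10 without the arrays high in Adam7, where the prKO count was 27.

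The difference from WT itself differed between the ages for many members. In prKO 18 of 38 had a lower change from 2 weeks to 2 months than in WT and none a higher one, where 12.3% of all genes tested were called in that direction and 15.8% in the other. In srKO the count was 9 and 0 (8.76% and 8.49% of all genes tested), and in lrKO 0 of 38 (limma, with 2 at an unadjusted p under 0.05). Of these calls 4 in prKO and 3 in srKO were for genes under the filter value in every group at 2 weeks, Prss37 among them. Their change between the ages has no measured level at its start. The other 14 and 6 were for other members, many of them also dim at 2 weeks. By class, members dim at 2 weeks made up 14 of the 18 calls in prKO and 7 of the 9 in srKO. At 2 weeks that class differed from WT by a median of -0.06 in prKO and 0.03 in srKO. Its interactions therefore largely repeat the differences at 2 months. The interaction was -0.99 ± 0.24 for Calr3 in prKO and -1.14 ± 0.23 in srKO. Ace, higher than WT at 2 weeks and not called at 2 months, had an interaction of -1.25 ± 0.21 in prKO (limma, adjusted p = 1.5e-05). None of the 10 varying members was called in either line, in a fit whose error held the 2-week spread that defined their class. Without srKO replicate 4 of 2 weeks, the array with high spermatocyte markers, the srKO count became 10 lower and 9 higher, 5 of the higher ones varying members (Adam2 2.56, Crisp2 2.36, Adam32 2.04, Clgn 1.59 and Acr 1.16). With array weights it was 11 lower and 15 higher, and all 10 varying members were higher. In prKO the varying gene Adam3 was called higher (2.00) against WT replicates 5 to 8 alone. Without the arrays high in Adam7 the count was 20 in prKO and 5 in srKO.

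A list of 47 other genes of the acrosome and fertilisation, of which 46 were tested, was read in the same comparisons. In WT 38 rose and 6 fell with age (median 3.34), where 26.7% of all genes tested were called higher and 55% lower. That count and median include genes that passed the filter through 2 months only, for which a rise was built in. Among these were Adam26a and Adam29, with WT means of 3.42 and 3.37 at 2 weeks. At 2 months 33 fell and 2 rose in prKO (median -0.78), 17 fell and 1 rose in srKO (median -0.32), and none was called in lrKO. The shares of all genes tested were 22.4% lower and 26% higher in prKO, and 10.8% and 14.7% in srKO. In lrKO 0.184% were called. Adam26a and Adam29, further ADAM genes of the testis, fell by 1.93 ± 0.41 and 1.91 ± 0.26 in prKO, and Cd46, an acrosomal membrane protein in mice, fell by 1.70 ± 0.25 in prKO and by 1.36 ± 0.22 in srKO. Prss55, another protease-like gene of ADAM3 maturation, fell by 1.10 ± 0.12 in srKO, with arrays at 6.34, 5.91, 6.36 and 6.10 against 6.92 to 7.63 in WT and no overlap. Plcz1, the sperm factor that activates the egg, lay under the filter value in WT at 2 weeks and was at least 45.9-fold higher at 2 months.

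Promoter sequence was set beside these values for the cAMP response element, TGACGTCA, and its shorter form, TGACG, since protein kinase A acts on factors that bind them and CREM, a germ cell factor of that family, is known to act in round spermatids. Of the 39 listed genes, Acrbp included, 31 had entries in the RefSeq promoter table, with 40 windows of 250 bases before a start. TGACGTCA was found on either strand in 1 of the 40 windows (2.5%), against 508 of 32851 windows of all genes (1.55%). TGACG, which TGACGTCA contains, was in 11 of the 40 (27.5%), against 5836 of 32851 (17.8%). Some windows of a gene overlap and hold the same copy. Counted by gene, TGACG was in 9 of 31 (29%), against 5347 of 27025 (19.8%). TGACGTCA was in 1 of 31 (3.23%), against 478 of 27025 (1.77%). The windows of Izumo1, the member with the full element, and of Spaca1, with 2 copies of the short form, are shown with these letters in capitals (GRCm38.p6).
Izumo1, plus strand, chr7:45621561-45621810: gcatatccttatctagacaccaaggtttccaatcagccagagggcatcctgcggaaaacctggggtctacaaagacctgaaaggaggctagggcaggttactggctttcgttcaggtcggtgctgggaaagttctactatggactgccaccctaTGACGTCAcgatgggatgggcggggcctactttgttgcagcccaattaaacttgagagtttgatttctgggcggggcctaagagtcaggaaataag
Spaca1, minus strand, chr4:34050068-34050317: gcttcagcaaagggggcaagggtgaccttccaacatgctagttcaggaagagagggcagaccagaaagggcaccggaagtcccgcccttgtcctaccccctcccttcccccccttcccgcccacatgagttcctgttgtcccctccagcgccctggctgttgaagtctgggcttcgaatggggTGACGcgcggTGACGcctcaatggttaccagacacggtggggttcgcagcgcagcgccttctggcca
The full element of Izumo1 starts 96 bases before its start site, and the copies of Spaca1 start 67 and 57 bases before theirs. These genes fell by 0.90 and 0.58 in prKO at 2 months, and in srKO Izumo1 fell by 0.70 while Spaca1 was not called (-0.22 ± 0.13, adjusted p = 0.24). A match to these letters is a description of the window only.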

How the data were processed

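Affymetrix arrays measured total RNA of 39 whole mouse testes in 8 groups taken from the sample titles. The authors deposited log2 intensities per probe set, normalized with RMA per the submitters' processing notes; neither its version nor the genome build is given in the sources used here. Of 41345 probe sets, 23521 carried 1 gene symbol, 1814 several and 16010 none; for a gene with several probe sets the brightest on average was kept. Genes were tested when a group mean exceeded the 25th percentile of all values (4.62). No further normalization was applied. Linear models (limma 3.58.1, R 4.3.3, lmFit and eBayes) held the 4 genotypes of an age, or all 8 groups where ages were compared. Two-sided p-values were adjusted by the Benjamini-Hochberg method over 19007 genes. The scripts were tested on simulated data. The number of arrays limits the precision. All members may be named, those with the largest differences in full. The members, the other lists and the alternatives were chosen with earlier results of these data known. Alternatives covered filters, probe set choice, scaling, array weights, samples fitted, a replicate block, WT subsets and each array left out; leaving out arrays with high Adam7 was added after the data were seen.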

Additional observations from a re-analysis of the deposited data

Results flagged for a closer look

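In 12 of 266 groups of 4 to 10 arrays tested, the highest or lowest array of a member stood apart from the rest by Dixon's criterion; chance alone would be expected to mark about 5% of groups. At 2 weeks srKO replicate 4 was the highest array for Dpy19l2 (7.79, next 5.90), Adam18 (5.55, next 4.70) and Adam32 (7.08, next 4.77), and it was also the srKO array with the highest spermatocyte markers (8.69). Adam32 was likewise highest on lrKO replicate 4 at 2 weeks (8.22, next 7.21), and Clgn lowest on prKO replicate 1 (8.41, next 9.83). Spaca7 was lowest on srKO replicate 3 at 2 weeks (4.47, next 4.64). Among WT arrays of 2 weeks Tmem95 was highest on replicate 4 (5.51), and Dcst1 and Lyzl4 on replicate 1 (5.75 and 5.67). At 2 months Zpbp was lowest on lrKO replicate 1 (9.82), Pick1 highest on srKO replicate 3 (8.67) and Adam32 lowest on srKO replicate 1 (11.34).

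The difference from WT itself differed between the ages, by limma's interaction term with adjusted p under 0.05, for 18 members in prKO. The log2 interactions were -1.08 for Spam1, -1.08 for Hyal5, -0.47 for Acrv1, -0.60 for Spaca4, -1.02 for Eqtn, -0.89 for Izumo1, -0.97 for Izumo2, -0.95 for Izumo3, -0.97 for Tmem95, -0.86 for Dcst1, -0.68 for Dcst2, -0.80 for Spaca3, -0.78 for Lyzl4, -0.77 for Lyzl6, -1.08 for Adam1a, -0.99 for Calr3, -1.25 for Ace and -1.66 for Prss37; the 2-week values of Spam1, Hyal5, Izumo3 and Prss37 lay under the filter value in every group, so that theirs start from no measured level. In srKO 9 members differed, with interactions of -0.62 for Spaca7, -0.54 for Eqtn, -0.80 for Izumo1, -1.05 for Izumo2, -0.67 for Izumo3, -0.53 for Lyzl4, -0.68 for Adam1a, -1.14 for Calr3 and -1.81 for Prss37, where the same holds for Spaca7, Izumo3 and Prss37. Members dim at 2 weeks made up 14 of the 18 in prKO and 7 of the 9 in srKO.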

How the results depend on the processing

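No value changed direction in a call under the alternatives run. Under alternatives other than leaving out an array, 275 of 292 counts and medians stayed close to the main result. A count was close when it stayed within a set factor of the main count, so single calls could still change. A median was close when it moved by less than the SD of the member median between arrays of a group. The exceptions follow as numbers of acrosome genes called. In prKO at 2 weeks 11 were called with array weights, 5 with all 8 groups fitted and 12 with WT replicates 5 to 8 alone, 1 of them higher in each and the rest lower. In srKO at 2 weeks it was 13 with array weights, 1 with the replicate block and 1 with WT replicates 1 to 4 alone, all lower. In prKO at 2 months it was 21 with all 8 groups. In srKO at 2 months it was 6 with WT replicates 5 to 8 alone, and array weights gave a median of -0.079. For the srKO change between ages it was 26 with array weights (15 higher, 11 lower) and 5 without the arrays high in Adam7. For prKO against srKO it was 1 with only the groups compared, 10 with all 8 groups and 10 with the replicate block. For srKO against lrKO it was 10 without the arrays high in Adam7 (median -0.27), and array weights gave a median of -0.26. The causes were not tested.

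Leaving out each array in turn gave 1 to 5 calls in prKO and 0 to 0 in srKO and lrKO at 2 weeks. At 2 months it gave 23 to 34 in prKO, 8 to 16 in srKO and 0 to 0 in lrKO, with medians from -0.67 to -0.54, -0.33 to -0.11 and 0.04 to 0.07. Between ages it gave 36 to 37 in WT, and 13 to 20, 6 to 19 and 0 to 0 for the changes of prKO, srKO and lrKO against that of WT. Between lines it gave 9 to 23 for prKO against srKO, 22 to 32 for prKO against lrKO and 10 to 18 for srKO against lrKO.

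Replicate numbers are shared between groups, but deviations of same-numbered arrays correlated above 0.1 in 7 of 24 pairs at 2 weeks and 1 of 21 at 2 months, so the numbers were not taken as pairing and the block result is given above as a setting only. Dim probe sets limit what can be seen at 2 weeks, and 3 prKO arrays limit the precision at 2 months.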

Other observations

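The spread of the members between arrays of a group differed from that of other genes in some groups and is given as values. The median SD of the 38 members was 0.41 in prKO at 2 months, where that of all genes tested was 0.18, and 0.21 against 0.14 in srKO. In WT at 2 months it was 0.14 against 0.14, and in lrKO 0.08 against 0.11.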
